A study of Mus musculus with 8 samples.

Results

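The genes described here encode the proteasome and the proteins named after it. They were taken by symbol, as every gene of the array's probe table whose name begins with Psma, Psmb, Psmc, Psmd or Psme and then a digit. The rule gave 42 of the 16593 genes and 63 of the 25697 probes. Of the 42, 40 are subunits, activators or assembly chaperones of the proteasome, and Psmc3ip and Psme3ip1 are proteins that bind a subunit. The subunits Psmd3, Psma8 and Psmb11 were not analysed here.

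The samples were preadipocytes, the precursors of fat cells, taken from the white fat of wildtype and Irf3-knockout mice. They were left to differentiate in high-glucose medium with newborn calf serum, insulin and ascorbate, which both genotypes received, with no further agent. Total RNA was taken at days 3, 5, 7 and 9 and hybridised to Illumina bead arrays, with 1 array for each genotype and day, 8 in all. Irf3 is a transcription factor that drives interferon and interferon-stimulated genes after viral or bacterial sensing, and the series asks how it bears on fat cell differentiation. The strain, sex and age of the mice and the deleted stretch of Irf3 are not stated in the sources used here, nor is the number of animals or cultures behind the 4 days.

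The proteasome is the protease that degrades proteins tagged with ubiquitin. Its core is a stack of alpha and beta rings with the active sites inside, and its cap, made of a base with a ring of ATPases and a lid, recognises, unfolds and feeds in the substrate. Interferon induces the immunoproteasome subunits, in which Psmb8, Psmb9 and Psmb10 take the place of the constitutive catalytic subunits Psmb5, Psmb6 and Psmb7, and Psme1 and Psme2 form an activator ring. These forms are known for making peptides that fit major histocompatibility complex (MHC) class I molecules.

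Between 12224 and 13414 probes per array, 47.6% to 52.2%, stood above background, by a detection p under 0.05. All 11 tested preadipocyte markers were above background on all 8 arrays. With day, 12 of 14 macrophage markers and 11 of 14 fat cell markers were called rising, against 8.54% of all tested genes. In knockout, 9 of 14 macrophage markers and 5 of 14 fat cell markers were called higher than in wildtype, against 2.74% of all tested genes. The median log2 differences were 2.0 and 1.52. Ptprc, among the 9, and Itgam and Fabp4, not called, were above background on no wildtype array. They were tested only through their knockout arrays and are counted in these medians, so they are no support for a difference. None of 5 lymphocyte markers on the array was above background on 2 or more arrays. The Irf3 probe still gave a signal in knockout, with a mean of 10.73 on the log2 scale against 11.23 in wildtype. Its difference was -0.50 ± 0.17 (SE of limma's fit over 4 days, adjusted p = 0.166). The deleted stretch is unknown, so that probe does not check the labels.

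Values below are background-corrected, quantile-normalised log2 intensities of a gene's brightest probe. A genotype difference is knockout minus wildtype on the same day, averaged over the 4 days, and its error is the standard error from limma's fit, in which the 4 daily differences are the repeats. For each gene limma draws the variance toward a value shared by all tested genes, so an error is not that gene's daily spread alone. Nothing states that the arrays are separate cultures. The p-values thus rest on the spread between these arrays, the gene's own and the shared one. A call is an adjusted p under 0.05 over all 9758 tested genes. A single day sets 1 array against 1 and has no test. In these bulk samples fewer cells of a type and less RNA per cell cannot be told apart.

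Among the 40 tested members, 2 were called for genotype, the lid subunit Psmd8 and the catalytic core subunit Psmb5. Both were lower in knockout. None was called higher. Across all tested genes 2.11% were called lower and 2.74% higher. At an unadjusted p under 0.05, limma gave 5 of the 40 members, and 1981 of all tested genes (20.3%). The remaining 31 tested constitutive subunits and chaperones lay between -0.19 and 0.36, with a median of 0.05. The median absolute difference was 0.082 over the members and 0.192 over all tested genes.

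**Figure D1:**
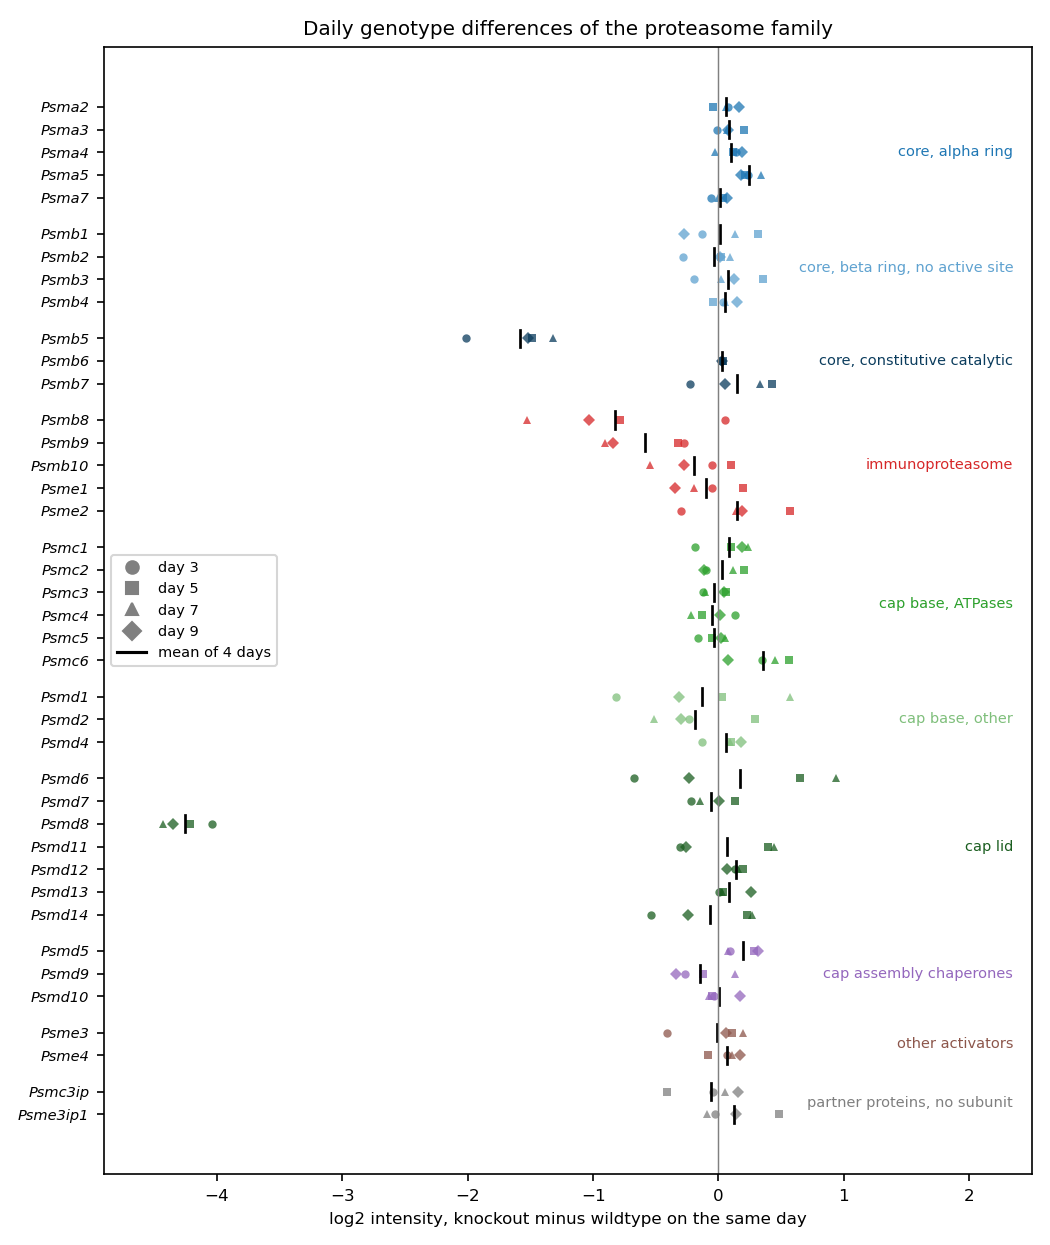
Knockout minus wildtype log2 intensity (horizontal axis) on each of 4 days (symbols) for the 40 tested members, grouped by role, with the mean of the days as a black bar. Psmd8 at -4.26 and Psmb5 at -1.59 lie apart from the rest, Psmb8 and Psmb9 spread to the left on the later days, and most other members sit near 0.

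Psmd8 is a subunit of the lid, the homologue of yeast Rpn12, which in yeast joins the lid last and lets it bind the base. Its only probe read 12.15, 12.41, 12.18 and 12.12 in wildtype at days 3, 5, 7 and 9. In knockout it read 8.11, 8.20, 7.75 and 7.77 on the same days. The groups were far apart and every knockout array was at least 2-fold below its wildtype partner. The probe stayed above background on all 8 arrays, with raw intensities of 3138.0 to 6019.4 in wildtype and 352.0 to 461.5 in knockout. The difference was -4.26 ± 0.14, a 19.1-fold lower signal (limma, adjusted p = 0.000116). It had the lowest p of all 9758 tested genes and was second from the bottom in its difference. Over 12 other ways of processing it ran from -4.33 to -3.59. The place of the probe in the Psmd8 transcript is unknown, and whether its signal stands for the whole transcript was not tested.

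Psmb5 carries the chymotrypsin-like active site of the constitutive core. Its only probe read 11.04, 11.02, 10.76 and 10.79 in wildtype at days 3, 5, 7 and 9. In knockout it read 9.03, 9.53, 9.44 and 9.27. The widest gap was at day 3, -2.02, and the others lay between -1.52 and -1.32. The difference was -1.59 ± 0.16, a 3.00-fold lower signal (limma, adjusted p = 0.00307), and it ranked 69th from the bottom in its difference. Over 12 other ways of processing it ran from -1.68 to -1.38, and the highest adjusted p was 0.0231. The place of the Psmb5 probe in its transcript is unknown as well.

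Psmd8 and Psmb5 were the members at least 2-fold lower on each of the 4 days, which held for 0.717% of all tested genes. They were also the members with every knockout array below every wildtype array, which held for 3.52% of all tested genes. The reverse, every knockout array above every wildtype array, was met by 1 member and by 2.31% of all tested genes. That member was the alpha ring subunit Psma5, at 13.65, 13.63, 13.59 and 13.72 in wildtype and 13.89, 13.84, 13.93 and 13.89 in knockout. Its difference of 0.24 ± 0.13 was not called (limma, adjusted p = 0.350).

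**Figure D2:**
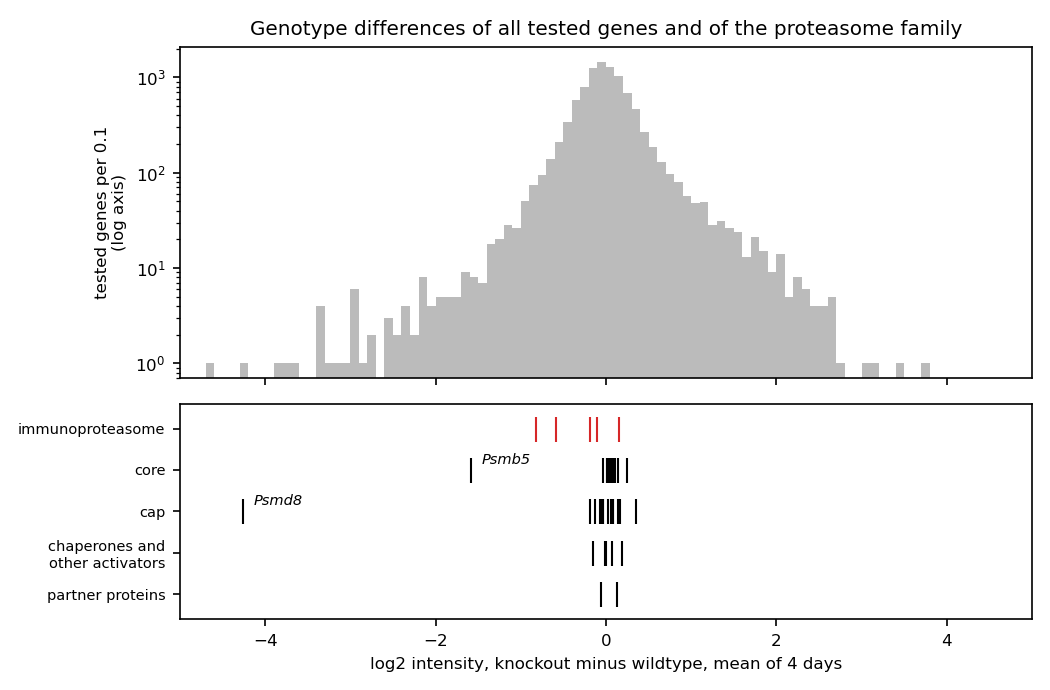
Upper panel, number of tested genes per 0.1 of log2 genotype difference (log axis), for all 9758 genes. Lower panel, each tested member as a tick on the same axis by role: Psmd8 at -4.26 lies in the far left tail, Psmb5 at -1.59 on the left shoulder, and the other constitutive members within the central peak.

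The promoters of these genes and of 3 immunoproteasome genes are shown because the genotypes differ in a transcription factor. Each runs 5′ to 3′ on the gene's strand, from 250 bases before to 50 bases after the transcription start, from RefSeq on GRCm38.p6. The positions are chr7:29180624-29180923 (minus strand) for Psmd8, chr14:54617946-54618245 (minus) for Psmb5, chr17:34197945-34198244 (plus) for Psmb8, chr17:34187281-34187580 (minus) for Psmb9 and chr14:55578244-55578543 (plus) for Psme1. Capitals mark a match, on either strand, to 1 of 2 motifs. The first is the interferon-stimulated response element bound by interferon regulatory factors, searched as 2 copies of GAAA with any 2 bases between them. The other is TGACNNNGC, the antioxidant response element bound by Nfe2l1 and Nfe2l2.
Psmd8: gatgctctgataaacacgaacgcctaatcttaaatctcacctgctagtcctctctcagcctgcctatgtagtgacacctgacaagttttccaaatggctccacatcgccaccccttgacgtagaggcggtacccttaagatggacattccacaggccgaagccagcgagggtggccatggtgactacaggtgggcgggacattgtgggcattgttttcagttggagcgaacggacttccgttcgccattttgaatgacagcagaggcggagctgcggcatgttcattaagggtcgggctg
Psmb5: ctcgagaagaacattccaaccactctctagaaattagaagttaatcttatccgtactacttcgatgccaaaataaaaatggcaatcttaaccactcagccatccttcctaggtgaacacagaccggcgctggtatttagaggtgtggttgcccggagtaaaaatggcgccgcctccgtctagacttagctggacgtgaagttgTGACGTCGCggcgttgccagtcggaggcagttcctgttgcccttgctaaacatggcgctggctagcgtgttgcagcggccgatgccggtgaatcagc
Psmb8: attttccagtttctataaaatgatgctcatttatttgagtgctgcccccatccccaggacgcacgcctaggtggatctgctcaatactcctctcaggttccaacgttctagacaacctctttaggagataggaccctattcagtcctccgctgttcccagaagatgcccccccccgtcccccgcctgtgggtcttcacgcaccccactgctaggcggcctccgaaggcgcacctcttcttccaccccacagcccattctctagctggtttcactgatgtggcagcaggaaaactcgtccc
Psmb9: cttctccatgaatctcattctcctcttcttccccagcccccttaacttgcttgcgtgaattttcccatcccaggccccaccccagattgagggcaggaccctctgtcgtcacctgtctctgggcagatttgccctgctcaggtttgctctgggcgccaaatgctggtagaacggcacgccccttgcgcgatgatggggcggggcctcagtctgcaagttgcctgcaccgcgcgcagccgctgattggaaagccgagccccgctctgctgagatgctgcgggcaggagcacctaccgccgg
Psme1: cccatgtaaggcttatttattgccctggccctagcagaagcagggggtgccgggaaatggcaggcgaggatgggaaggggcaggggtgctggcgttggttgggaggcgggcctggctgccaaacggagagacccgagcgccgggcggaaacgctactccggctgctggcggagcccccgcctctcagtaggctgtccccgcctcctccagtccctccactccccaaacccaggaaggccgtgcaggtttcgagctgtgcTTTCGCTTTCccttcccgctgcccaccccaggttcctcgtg

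In these windows Psmd8, Psmb8 and Psmb9 held no match to either motif, Psmb5 held 1 antioxidant element and Psme1 held 1 interferon-stimulated element. RefSeq promoters were matched for 37 of the 42 members, 41 windows in all, and Psmb7 was not among them. The interferon-stimulated element was found in Psmb3, Psmd4, Psmd9 and Psme1, 4 of 37 genes. By window this was 4 of 41, against 3.44% of all 32851 promoter windows. The antioxidant element was found in Psmb5, Psmb6, Psmc6, Psmd9, Psmd12 and Psme4, 6 of 37 genes. By window this was 6 of 41, against 12.4% of all promoter windows. Psmd9 was the member with matches to both motifs, and these did not overlap. A match describes these letters and is not evidence of binding. Of the 6 members with an antioxidant element, Psmb5 was the only one called for genotype, and none of the 4 with an interferon-stimulated element was.

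The alpha ring of the core gates entry to the active sites. Its 5 tested subunits, Psma2, Psma3, Psma4, Psma5 and Psma7, differed by 0.01 to 0.24, and none was called. Psma1 and Psma6, with 1 probe each, were above background on none of the 8 arrays and were not tested. The tested alpha subunits all read 12.23 or higher. Whether the Psma1 and Psma6 probes report their transcripts is unknown, so they do not show that these genes were silent. The beta subunits without an active site, Psmb1, Psmb2, Psmb3 and Psmb4, differed by -0.04 to 0.07 and none was called. The core without Psmb5 had a median of 0.06 over 11 genes, with 10 above 0. Of all 9758 tested genes, 4604 were above 0. The sign count of the core was not tested.

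Psmb6 carries the caspase-like site beside Psmb5. It read 12.56, 12.55, 12.72 and 12.65 in wildtype and 12.58, 12.58, 12.75 and 12.68 in knockout at days 3, 5, 7 and 9. The paired arrays were almost equal on each day, with a mean difference of 0.03 ± 0.13 (limma, adjusted p = 0.927). The daily differences of Psmb6 had an SD of 0.008, so that error is mostly the shared part of limma's variance. Psmb7, with the trypsin-like site, read 13.01, 12.45, 12.64 and 12.73 in wildtype and 12.78, 12.88, 12.97 and 12.78 in knockout. Its groups overlapped and the difference was 0.15 ± 0.16 (limma, adjusted p = 0.682), with 0.27 without day 3 and 0.051 without day 5. Its other probes gave 0.05 and 0.51, and neither was called in a fit over probes. Of the 3 constitutive catalytic subunits, Psmb5 was thus the one called.

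In the cap base, the ATPases Psmc1 to Psmc6 unfold the substrate. They differed by -0.05 to 0.36 with none called, and the highest was Psmc6 (0.36 ± 0.14, limma, adjusted p = 0.226). Psmc6 was dim, at 5.35 to 6.43 in wildtype and 5.91 to 6.51 in knockout, and above background on 7 of 8 arrays. The large scaffold subunits Psmd1 and Psmd2 differed by -0.13 and -0.19, and the ubiquitin receptor Psmd4 by 0.06.

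Psmd2 was the member whose probes disagreed most. Its brighter probe gave -0.19 ± 0.17 with overlapping groups. Its dimmer probe read 6.46, 6.0, 6.73 and 6.60 in wildtype and 5.62, 5.45, 5.90 and 5.84 in knockout, with each knockout array below each wildtype array. That probe was above background on 4 wildtype and 2 knockout arrays, and its difference was -0.74 ± 0.14 (limma fit over all kept probes, adjusted p = 0.0323). In the same fit the other member probes called were those of Psmd8 and Psmb5.

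The lid holds the deubiquitinase Psmd14 and its partner Psmd7, and the scaffold subunits Psmd6, Psmd11, Psmd12 and Psmd13. These 6 neighbours of Psmd8 in the complex differed by -0.07 to 0.17 and none was called. The spread among the 4 days was widest for Psmd6, whose daily differences had an SD of 0.75 (n = 4 days), against a median SD of 0.18 over the members and 0.34 over all tested genes. Without Psmd8, the 15 tested cap subunits had a median of 0.03, with 8 above 0 and 7 below.

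The chaperones Psmd5, Psmd9 and Psmd10 bind base ATPases while the cap is built. They differed by 0.19, -0.15 and 0.00. The activators Psme3, found mainly in the nucleus, and Psme4 can replace the cap at the end of the core, and differed by -0.01 and 0.07. Psmc3ip, which acts in meiotic recombination, and Psme3ip1, a binding partner of Psme3, differed by -0.06 and 0.13. None of these 7 was called.

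A further list held partners outside the symbol rule, among them the small lid subunit Sem1, the core assembly factors Psmg1, Psmg2, Psmg3 and Pomp, the deubiquitinases Usp14 and Uchl5, and Nfe2l1, which drives proteasome genes when the proteasome is inhibited. Of 21 listed, 14 were tested. None was called for genotype (lowest limma adjusted p = 0.357, none at an unadjusted p under 0.05), and none for day. Their median was 0.10 and their range -0.17 to 0.34. Nfe2l1 itself differed by 0.15 ± 0.15.

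None of the 5 immunoproteasome genes was called for genotype. Their median difference was -0.19, against -0.02 over all tested genes and 0.03 over the 33 tested constitutive subunits and chaperones. The list's median by day was -0.05, 0.10, -0.54 and -0.35 at days 3, 5, 7 and 9. At an unadjusted p under 0.05, limma gave 2 of the 5, Psmb8 and Psmb9, beside the 20.3% of all tested genes.

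Psmb8, which replaces Psmb5, read 7.39, 7.95, 8.39 and 8.16 in wildtype at days 3, 5, 7 and 9. In knockout it read 7.44, 7.16, 6.87 and 7.13. The arrays were level at day 3 and the knockout arrays were below their wildtype partners on the other days, by 0.79, 1.52 and 1.03 on the log2 scale, so the groups overlapped only through day 3. The difference was -0.82 ± 0.25 (limma, adjusted p = 0.129). Without the 2 arrays of day 3 it was -1.12 and passed the threshold (limma, adjusted p = 0.0183). More of all tested genes were called in that setting as well. Without day 5, 7 or 9 limma's adjusted p for Psmb8 was 0.286 to 0.381. Over 12 alternatives the Psmb8 difference ran from -1.12 to -0.46, with adjusted p from 0.0183 to 0.381.

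Psmb9, which replaces Psmb6, read 9.66, 10.09, 10.80 and 10.997 in wildtype and 9.39, 9.77, 9.90 and 10.15 in knockout. Knockout was lower on each of the 4 days, with larger gaps at days 7 and 9 than before, but the groups overlapped since both genotypes were higher on later days. The difference was -0.59 ± 0.17 (limma, adjusted p = 0.109). With a trended and robust variance prior its adjusted p was 0.0441, and over the 12 alternatives it ran from 0.0441 to 0.549.

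Psmb10, which replaces Psmb7, read 10.73, 10.96, 11.40 and 11.09 in wildtype and 10.68, 11.06, 10.86 and 10.82 in knockout. The groups overlapped and the difference was -0.19 ± 0.16 (limma, adjusted p = 0.566). Leaving out single days gave -0.29, without day 5, to -0.075, without day 7. Its dimmer probe read 10.62, 10.88, 11.32 and 10.90 in wildtype and 10.57, 10.80, 10.76 and 10.54 in knockout, a difference of -0.26. Both probes showed their widest gap at day 7.

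Psme1 and Psme2 form the activator ring. Psme1 read 12.20, 12.12, 12.60 and 12.44 in wildtype and 12.15, 12.32, 12.40 and 12.09 in knockout, a difference of -0.10 ± 0.15 (limma, adjusted p = 0.769). Its dimmer probe read 11.15, 11.08, 11.86 and 11.66 in wildtype and 11.08, 11.60, 11.91 and 11.19 in knockout, a difference of 0.01, so the probes differed in sign. Both sets of groups overlapped. Psme2 read 9.90, 9.37, 9.77 and 9.97 in wildtype and 9.60, 9.95, 9.91 and 10.15 in knockout, and its difference of 0.15 ± 0.17 was not called (limma, adjusted p = 0.704). That of Psme2 was 0.30 without day 3 and 0.0061 without day 5, and that of Psme1 was -0.20 without day 5 and -0.016 without day 9.

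**Figure D3:**
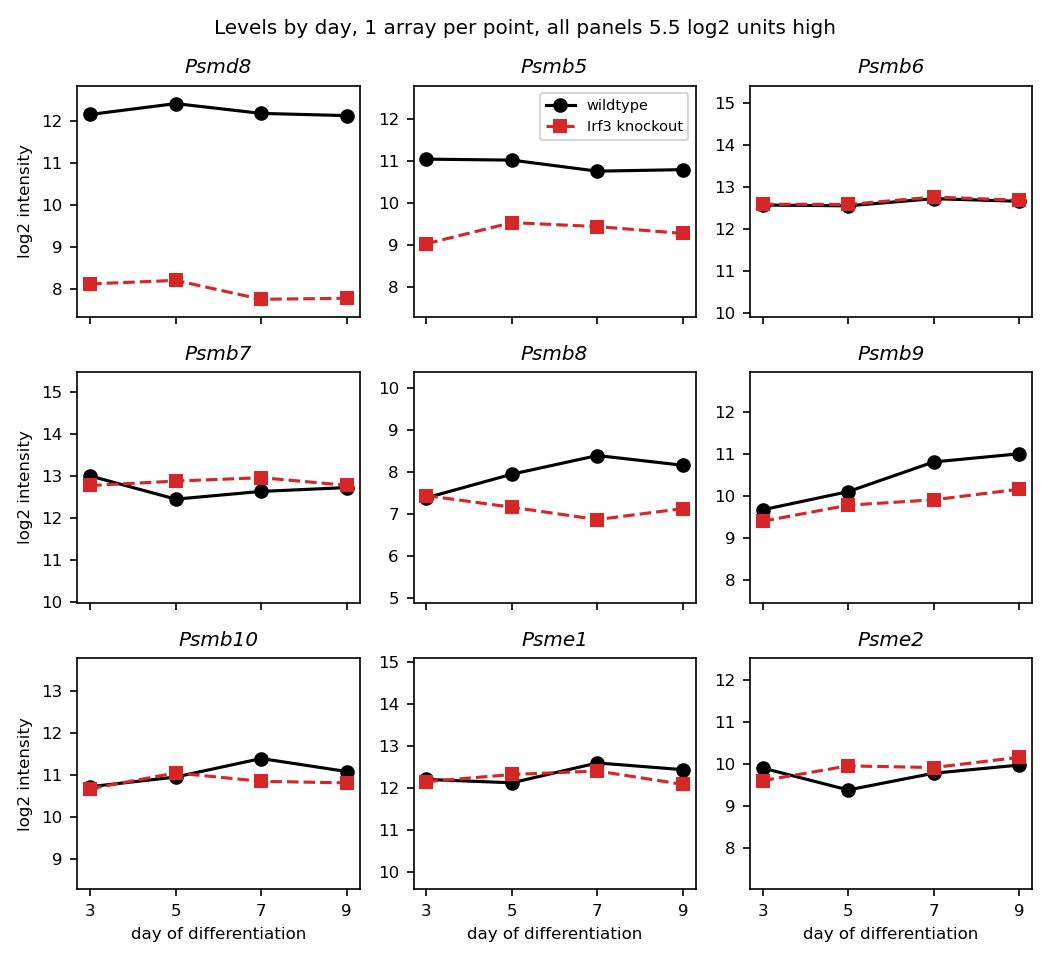
Log2 intensity of the catalytic and activator members and of Psmd8 by day of differentiation, with wildtype as black circles and knockout as red squares, 1 array per point and each vertical axis spanning the same number of log2 units. Psmd8 and Psmb5 run apart throughout, Psmb6 lies on one line, and Psmb8 and Psmb9 separate after day 3 and day 5.

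The exchange of catalytic subunits can be set out as unequal change within the same pairs of arrays, without setting 1 probe's level against another's. For Psmb8 against Psmb5 the difference of Psmb8 exceeded that of Psmb5 by a mean of 0.76 (SD 0.95, n = 4 days). The Psmb8 difference was above that of Psmb5 at days 3, 5 and 9 and below it at day 7. For Psmb9 against Psmb6 the gap was -0.61 (SD 0.34), and for Psmb10 against Psmb7 it was -0.34 (SD 0.43). At day 3 the knockout array thus had Psmb5 lower by 2.02 on the log2 scale with Psmb8 level, and at day 7 both were lower by more than 1.

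The genes that carry proteasome peptides to MHC class I were given beside the immunoproteasome. Of 11 listed, 9 were tested, 2 fell in knockout and the 9 all had differences below 0, with a median of -0.40. Of all 9758 tested genes, 5154 were below 0 and 2.11% were called lower. Tap1, a subunit of the peptide transporter that lies between Psmb9 and Psmb8 in the gene order, read 8.29, 7.57, 8.58 and 8.62 in wildtype and 7.07, 6.95, 7.24 and 7.00 in knockout. Every knockout array was below every wildtype array, which held for 3.52% of all tested genes. Tap1 fell by 1.20 ± 0.19 on the log2 scale (limma, adjusted p = 0.0175). Nlrc5, the transactivator of class I genes, fell by 0.95 ± 0.14 (limma, adjusted p = 0.0125). B2m, the light chain of class I, differed by -0.07 ± 0.15 and was not called.

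Of 7 tested interferon regulators and early interferon-stimulated genes, 5 fell in knockout, namely Irf7, Irf9, Isg15, Stat2 and Usp18. For this and the lists below, the shares over all tested genes were 2.11% called lower and 2.74% called higher. The median of the list was -1.11. Irf8, which is also a factor of the macrophage lineage, differed the other way, by 1.19 ± 0.39 (limma, adjusted p = 0.155), with 2.02 and 2.26 at days 7 and 9. Irf1, which drives immunoproteasome genes downstream of interferon gamma, differed by -0.38 ± 0.15 and was not called (limma, adjusted p = 0.216). Every knockout array of Irf1, at 11.26 to 11.62, was below every wildtype array, at 11.69 to 11.98. Such a separation held for 3.52% of all tested genes. The macrophage list, with Ptprc and Itgam counted in it, moved the other way, with medians of 1.59, 2.40, 2.32 and 1.83 at days 3, 5, 7 and 9. Its summed intensity was 4458 to 49210 in wildtype and 16720 to 123500 in knockout, and Ptprc and Itgam were above background on no wildtype and 2 knockout arrays. The fat cell list summed to 2398 to 40340 and 5006 to 83290, with Fabp4 above background on no wildtype array and 3 knockout arrays. That Fabp4 probe was dim throughout, at 4.85 to 5.58 in wildtype and 5.12 to 6.76 in knockout. On the wildtype array of day 9 Adipoq read 14.01. Whether the Fabp4 probe reports its transcript was not tested, so it does not show that wildtype cells lacked Fabp4. The preadipocyte list summed to 108900 to 132000 and 115700 to 125600, and of its 11 genes 1 was called, Dlk1, which rose by 0.88 ± 0.16 on the log2 scale (limma, adjusted p = 0.0307). In knockout 3 of 5 tested mesothelial or epithelial markers fell, the keratins Krt7, Krt8 and Krt18, while the mesothelial factor Wt1 differed by 1.07 and was not called (list median -1.02). Of 7 endothelial markers 1 fell, Flt1 (list median -0.40). The part of these cell types in the proteasome results was not tested.

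**Figure D4:**
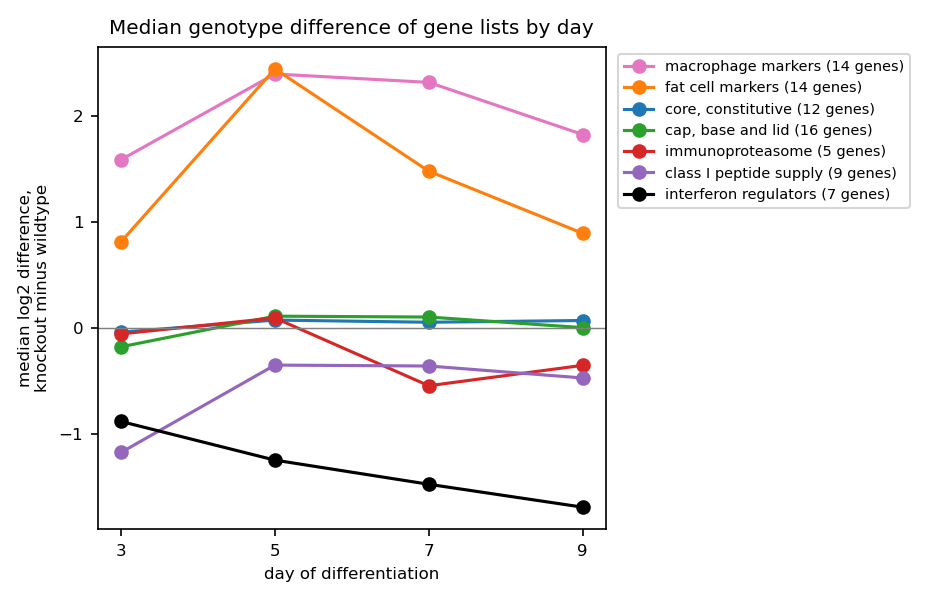
Median log2 genotype difference of 7 gene lists (vertical axis) by day of differentiation (horizontal axis), 1 array per genotype and day. The core and cap stay near 0, the immunoproteasome lies below 0 at days 7 and 9, the interferon regulators lie lowest from day 5 on, and the macrophage and fat cell markers lie above 0 throughout.

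With day, 2 of the 40 members were called, over both genotypes together. Psmb9 rose by 0.178 ± 0.035 per day on the log2 scale (limma, adjusted p = 0.0112), with slopes of 0.236 in wildtype and 0.121 in knockout. Psmc3ip, no subunit, was called with a slope of -0.208 ± 0.040 per day (limma, adjusted p = 0.0102). Across all tested genes, 8.54% were called rising and 8.25% falling. Without the wildtype array of day 9 the Psmb9 slope was 0.168 (adjusted p = 0.0559), and without the knockout array of day 3 the Psmc3ip slope was -0.189 (adjusted p = 0.0710), so that each call was lost without 1 array.

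Psmc3ip read 9.86, 9.44, 8.62 and 8.57 in wildtype and 9.81, 9.03, 8.67 and 8.73 in knockout, highest at day 3 in both. Next in steepness came Psmd2, at 7.52, 6.86, 6.84 and 6.82 in wildtype and 7.29, 7.15, 6.33 and 6.51 in knockout, with a slope of -0.132 per day (limma, adjusted p = 0.0528). Over 16 alternatives the Psmd2 slope ran from -0.160 to -0.038, with limma adjusted p from 0.0406, without the wildtype array of day 5, to 0.484, with the mean of its probes. It passed the threshold in that first setting and with the filter on all 8 arrays (adjusted p = 0.0410), and its dimmer probe had a slope of the other sign, 0.056 (adjusted p = 0.382). Psmd11 read 10.16, 9.06, 9.22 and 9.32 in wildtype and 9.86, 9.45, 9.67 and 9.06 in knockout, a slope of -0.113 (limma, adjusted p = 0.140). In wildtype its day 3 array stood above the other 3, and without that array the slope was -0.058 (limma, adjusted p = 0.447). Psmc5, a base ATPase, read 12.32, 11.95, 11.89 and 11.66 in wildtype and 12.16, 11.90, 11.94 and 11.67 in knockout, lowest at day 9 in both, with a slope of -0.087 (limma, adjusted p = 0.0691).

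Of the 33 tested constitutive subunits and chaperones, 27 had a slope below 0 and 6 above, with a median of -0.037 per day, against a median of -0.010 over all tested genes. Over all tested genes 5341 slopes were below 0 and 4417 above. For the 16 cap subunits 14 were below 0, with a median of -0.053, and for the 12 core subunits 9 were below 0, with a median of -0.022. None of these was called (lowest limma adjusted p = 0.0528, 5 at an unadjusted p under 0.05, which 32.7% of all tested genes reached). The 5 immunoproteasome genes all had a slope above 0, with a median of 0.044, of which Psmb9 was called. The slope of Psmb8 was below 0, at -0.028, without the wildtype array of day 3. The constitutive and immune slopes were not tested against each other.

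**Figure D5:**
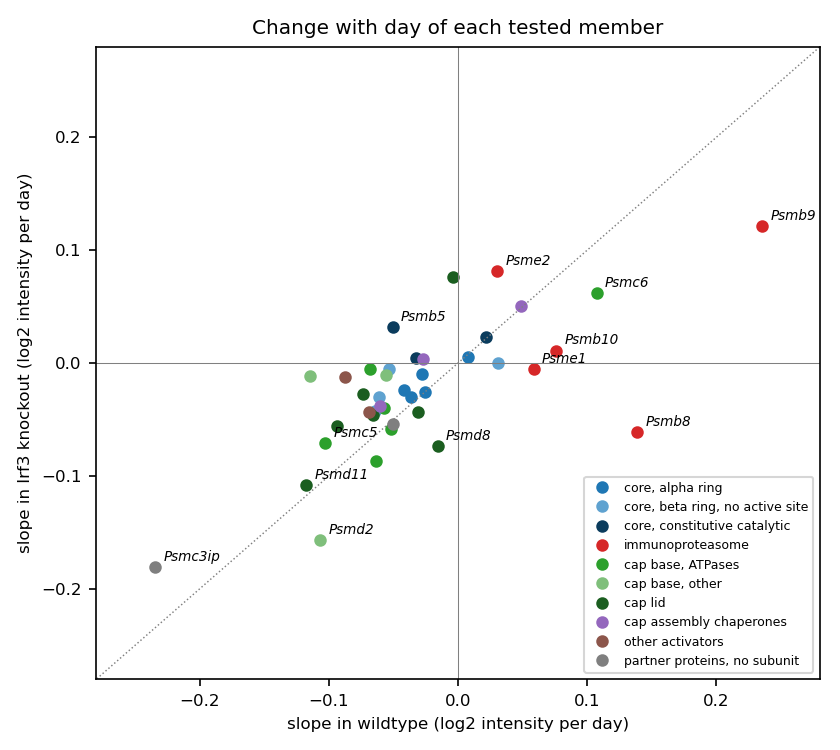
Slope per day in knockout (vertical axis) against slope per day in wildtype (horizontal axis), in log2 intensity per day, for the 40 tested members coloured by role, with the line of equal slopes dotted. Most constitutive members lie left of 0, Psmb9 at 0.236 and 0.121 lies at the far right, and Psmb8 lies below the line at 0.139 and -0.061.

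Whether the slopes of the genotypes differed was also tested, and limma called this for none of the members and for 0% of all 9758 genes. At an unadjusted p under 0.05 there were 1 member and 595 genes, and the lowest adjusted p was 0.158. The member was Psmb8, with slopes of 0.139 in wildtype and -0.061 in knockout, a difference of -0.200 ± 0.080 per day (adjusted p = 0.788). Psmd8 and Psmb5 had slope differences of -0.058 ± 0.066 and 0.083 ± 0.070.

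The members lie on many chromosomes, and Psmd8, Psma1, Psmc4 and Psmd13 share chromosome 7 with Irf3. The array's build is not stated, so only the order of genes on GRCm38.p6 was used. Between Psmd8 and Irf3 lie 93 tested genes, of which 10 (10.8%) were called, 6 lower and 4 higher. On the whole chromosome 7.87% of 775 tested genes were called, and 4.85% of all tested genes. Among the 20 nearest tested neighbours of Psmd8, 1 was called, Zfp420, lower in knockout. Of the 20 nearest to Psmb5, on chromosome 14, 1 was called, Abhd4, also lower. Psmc4, on chromosome 7 with Psmd8, differed by -0.05 and Psmd13 by 0.08, and neither was called. The part of position in the Psmd8 difference was not tested.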

How the data were processed

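Total RNA of 8 samples was measured on Illumina bead arrays, 1 for each of 2 genotypes and 4 days. The authors deposited a table of raw bead intensity with a detection p-value for each probe, and a matrix of processed intensity on a linear scale. How that matrix was normalised, and the slide of each array, are not stated in the sources used here, and slide was not used as a block.

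The raw values went through neqc of limma 3.58.1 (R 4.3.3), that is normexp background correction using the detection p-values, an offset of 16, quantile normalisation and log2. Of all probes, 14232 passed the filter of a detection p below 0.05 on 2 or more arrays. The brightest probe by mean stood for each of 9758 genes. Symbols came from the platform table (23978 probes with 1 symbol, 1719 with none), of which 23962 were matched by gene identifier to names used with GRCm38.p6.

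Genotype was fitted with day as a factor (3 residual degrees of freedom), day as a slope with genotype as a term (5), and the difference in slope as their interaction (4). Tests were limma's moderated two-sided tests with Benjamini-Hochberg adjustment over all tested genes, at 0.05. With 8 arrays and 1 per condition, the number of arrays limits precision. The steps were tested on simulated data.

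Members were chosen by symbol. Values on every array are given for the immunoproteasome genes, their constitutive partners, called members and the 5 steepest slopes. Psma5 and the dimmer Psmd2 probe were added after their values were seen. The members and gene lists were chosen with earlier results of these data known. Alternatives changed the background correction, scaling, filter, probe choice, source of values, variance prior and form of day, and left out single days or arrays.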

Additional observations from a re-analysis of the deposited data

How the results depend on the processing

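Under all 12 alternatives for genotype Psmd8 and Psmb5 were called lower. The count of members was 2 or 3, with Psmb8 added without day 3 and Psmb9 with the trended and robust prior. The count of all genes called moved far more, from 115 with no day term to 1082 without day 3, against 473. For day, members called numbered 5 with no background correction and 5 with the trended and robust prior, which added Psmc4, Psmc5 and Psmd13, and 1 to 3 when single arrays were left out, against 2. All genes called for day ran from 408, without the knockout array of day 3, to 1926, against 1638. Those 1638 were 8.54% of all tested genes rising and 8.25% falling, so a count of 5 members was not read as a result about the family. No member was called for a difference in slope under any of these settings. With no background correction limma called 2 genes of the whole array for it, and with the trended and robust prior 1.

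The Psme1 genotype difference turned to 0.0074 with its dimmer probe. Slopes per day near 0 changed sign. The Psmb5 slope was 0.0029 in the deposited processed values, and -0.055 to 0.0066 over the leave-one-out fits. The Psmb7 slope was 0.000697 in the deposited processed values, 0.011 with the mean of its probes, and -0.030 to 0.023 over the leave-one-out fits. The Psmb8 slope ran from -0.028, without the wildtype array of day 3, to 0.097. The causes were not tested. The median over the members was -0.01 with median scaling and 0.07 with the deposited processed values, against 0.02. That of all genes stayed within 0.05 of 0. Dim probes such as those of Psmc6 and Psmd2 limit what can be read from them. No paired analysis by replicate number was possible because each condition has 1 array; the day, shared by both genotypes, is the block in the genotype fit.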
